A study of Mus musculus with 2 samples.

Results

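The whey acidic protein (WAP) family and its Kunitz counterparts were followed in prostaspheres with and without Sox9. A prostasphere is a ball of prostate epithelium that grows out in Matrigel from dissociated cells. The 9 genes are the WAP-domain genes Expi, Slpi, Wfdc1, Wfdc2, Wfdc3, Wfdc5 and Wfdc12 and the Kunitz inhibitors Spint1 and Spint2, taken by name from the array annotation, of 27827 gene names in all. The list was drawn up with results of these same arrays known: Expi and Slpi were chosen by their log2 ratios here, which put them in the study's lists of changed genes, and the others are listed as WAP-domain or Kunitz inhibitor genes. The log2 ratios are therefore a description, and no test is given for them.

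2 Agilent whole mouse arrays on 1 slide were hybridized with 4 RNAs. In the genotype comparison, RNA of TAM-treated wild-type cells (Cy5) was set against RNA of TAM-treated ER-Sox9flox/flox cells (Cy3). In the treatment comparison, RNA of vehicle-treated ER-Sox9flox/flox cells (Cy5) was set against RNA of TAM-treated ER-Sox9flox/flox cells (Cy3). The arrays are thus different contrasts and not replicates, also where an SD is given with n = 2. Sox9 loss goes with genotype on the first and with TAM exposure on the second, and within an array the 2 cannot be told apart. Tamoxifen (TAM) switches on a Cre recombinase that excises the floxed Sox9 gene, and the Cre in this system is carried at the ubiquitous Rosa26 locus, so that deletion is not limited to one cell type. Per the labels, epithelium of the urogenital sinus was taken from embryos at 16 days post conception, and all 4 RNAs carry C57/Bl6J as genetic background. The spheres spent 6 days in Matrigel with dihydrotestosterone and then 6 days with 5 µM TAM or vehicle. On the second array both RNAs carry the genotype label Sox9 null and are told apart by treatment alone. The source names call the Cy5 RNAs SOX9 and the Cy3 RNAs Ctrl and were not used. The methods describe the prostasphere assay with cells of adult prostate. The TAM-treated ER-Sox9flox/flox RNAs of the genotype and the treatment array are called deleted RNA a and deleted RNA b below, and the titles number them No.7 and No.9. The sources used here do not say whether those numbers stand for separate cultures or animals. In these bulk RNAs, fewer cells of a type and less RNA per cell cannot be told apart.

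Secreted proteins of the WAP family carry a compact fold held by disulfide bridges, and several of them block serine proteases. Slpi shields epithelial surfaces from neutrophil elastase and cathepsin G. Kunitz inhibitors of the Spint group sit in the membrane of epithelial cells and restrain matriptase, hepsin, prostasin and hepatocyte growth factor activator, which cut growth factors and channels at the cell surface. In mouse, many WAP genes, Slpi among them, lie in a cluster on chromosome 2, while Expi lies apart on chromosome 11.

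The probes behind the main values are shown because both of the largest differences rest on a single stretch of transcript. Expi, named Wfdc18 in RefSeq and also known as WDNM1, was read by 2 probes on the plus strand in mm9 coordinates, at chr11:83524741-83524800 and chr11:83524751-83524810. They overlap by 50 of their 60 bases and are thus not independent readings of the gene. Their first 30 bases, 5′ to 3′, have the shared part in capitals:
Expi, brighter probe: tcctccttagACCTAGAATTGCATCCTTGG
Expi, second probe: ACCTAGAATTGCATCCTTGGaagaggaaga
Slpi was also read by 2 probes, at chr2:164179849-164179908 and chr2:164185063-164185122 on the minus strand of mm9. Their starts lie 5214 bases apart, farther than the 2438 bases that RefSeq gives as the length of the Slpi gene. The first 30 bases of each are shown with no capitals, since the probes share no stretch:
Slpi, bright probe: ttactgttttaccactaacatctccttttg
Slpi, dim probe: tgagtaacaggagccacaaggtatgtctga
The second of these was not well above background in any of the 4 RNAs, so every value of Slpi comes from the first.

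The deleted gene was checked first. The brightest Sox9 probe read 1634 in wild-type and 1198 in vehicle-treated cells against 252.6 and 232.2 in the deleted RNAs, which gave log2 ratios of 2.69 and 2.37. A second probe had log2 ratios of 1.18 and 1.27. The most distal Sox9 probe had the opposite sign, at -1.11 ± 0.16 (SD, n = 2), and in wild-type cells it did not clear background. Of the prostate markers given here, Hoxb13 and Tmprss2 were measured, while the secretory gene Pbsn (probasin) was not well above background. All 5 markers of luminal and simple epithelium, Krt8 and Cdh1 among them, were above background in all 4 RNAs. Every log2 ratio below is Sox9-expressing over Sox9-deleted RNA, and brightness is in the arbitrary units of the scanner after normalization within and between the arrays. The dyes were not swapped between the arrays, and a probe's bias toward Cy5 and a response to Sox9 cannot be told apart. A fixed 50 was added to each brightness after background correction, which understates the ratios of dim probes.

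Of the 14 probes of the 9 genes, 9 were well above background on both arrays in Cy5, Cy3 or both, and 5 were above background in no RNA. Expi, Slpi, Wfdc1, Wfdc2, Wfdc3 and Spint1 could thus be measured, 6 of the 9. Wfdc5 (2 probes), Wfdc12 (1 probe) and Spint2 (1 probe) were not well above background, and for them no difference was detectable with these arrays. Among the 6 measured genes, 1 was at least 2-fold higher with Sox9 on both arrays (Expi) and 1 at least 2-fold lower (Slpi). Over the 15131 genes tested, 0.377% were at least 2-fold higher and 0.159% at least 2-fold lower on both arrays, but Expi and Slpi were selected on such values, and nothing is read from that contrast. At any size, 2 of the 6 were higher on both arrays (Expi, Wfdc3) and 3 lower (Slpi, Wfdc2, Spint1), beside 33.8% of all tested genes in each direction. The sixth, Wfdc1, had opposite signs, as had all tested genes outside these 2 shares. Of these directions, Spint1 turned positive on both arrays when loess was replaced by median centring, which left the median of all tested probes at 0.379 in the treatment comparison. Wfdc3 was below 0 in the treatment comparison on uncorrected signals, on the authors' and the software's processed values and with both of its probes averaged. The median of the 6, -0.03, lay close to 0.00, the median of all tested genes.

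**Figure D1:**
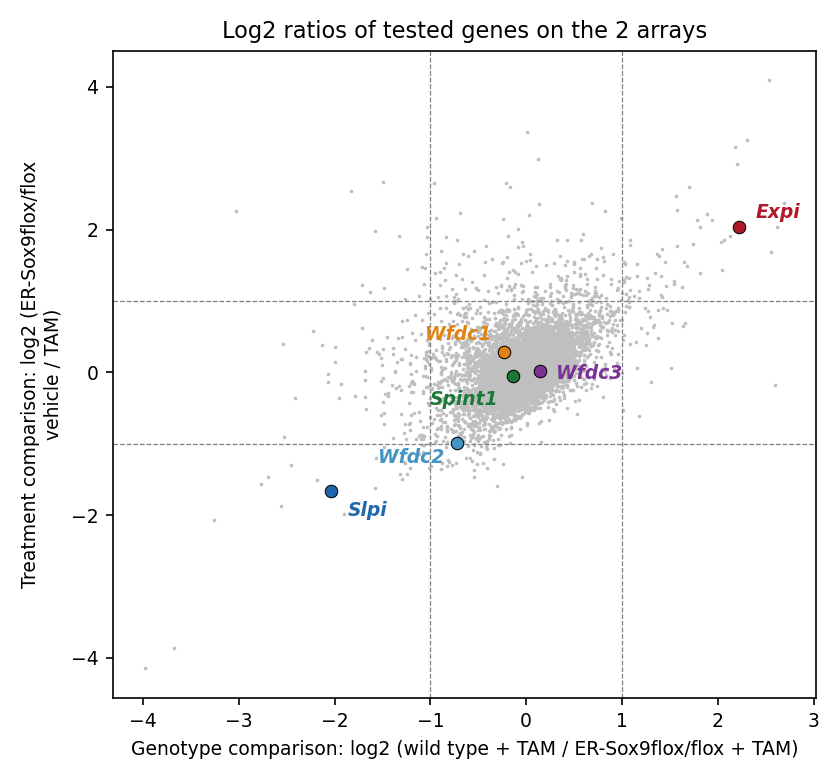
Log2 ratio of Sox9-expressing over Sox9-deleted RNA in the genotype comparison (horizontal axis) and the treatment comparison (vertical axis) for each of 15131 tested genes (grey), with the 6 measured WAP and Kunitz genes in colour. Dashed lines mark a 2-fold change. Expi lies beyond the lines at the upper right, Slpi beyond them at the lower left, and the other 4 lie between them.

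Expi was the member with the highest ratios. The gene encodes a small secreted WAP protein, extracellular proteinase inhibitor. Its brighter probe read 1210 in wild-type and 1233 in vehicle-treated cells, and 259 and 299.2 in deleted RNA a and b. Both Sox9-expressing RNAs were thus above both deleted RNAs. With 2 RNAs on each side such an order is easily reached. The share of all tested genes that have it was not counted, here or for the genes below. The log2 ratio was 2.22 in the genotype and 2.04 in the treatment comparison, with a mean of 2.13 ± 0.13 (SD, n = 2), which is 4.39-fold. The overlapping second probe read 1010, 1167, 236.2 and 306.1 in the same order, with a mean log2 ratio of 2.01 ± 0.12. Among all tested genes, Expi ranked 7th from the top in the genotype comparison and 29th in the treatment comparison.

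The size of the Expi difference depends on how dim spots are handled, and its signal in the deleted cells was low. Before normalization the brighter probe stood 110.4 and 163.1 above local background in deleted RNA a and b, against 1590 and 1540 in wild-type and vehicle-treated cells. On the signals as processed by the scanner software the log2 ratios were 3.04 and 2.25. In the 10 other settings tried, each array alone among them, the ratio lay between 2.04 (the treatment array alone) and 2.65. The other filters among them keep the same probe and could not change it.

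The genes nearest to Expi, by the distance between points in the plane of both log2 ratios, were Krt5 (0.16), Krt14 (0.24) and Car12 (0.28), of 14051 candidates above background in all 4 RNAs. Krt5 and Krt14 are the paired keratins of basal epithelial cells, and Car12 is a membrane-bound carbonic anhydrase. Krt5 had log2 ratios of 2.13 and 1.91, Krt14 of 2.07 and 1.86 and Car12 of 2.04 and 1.83. All 3 of the basal markers listed (Krt5, Krt14 and Trp63), read by their brightest probes, passed 2-fold upward with Sox9 on each array, beside 0.377% of all tested genes. Their median log2 ratio was 1.96. A second Trp63 probe above background in all 4 RNAs had only 0.52 and 0.53. The summed brightness of the 3 markers was 238900 and 201500 in wild-type and vehicle-treated cells and 55970 and 54750 in deleted RNA a and b. Nearly all of it came from Krt5 and Krt14, the genes already named as nearest to Expi. The part of basal cell number in the Expi difference was not tested.

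Slpi went the other way and was the member with the lowest ratios. Its bright probe read 568.3 in wild-type and 500.2 in vehicle-treated cells, and 2339 and 1577 in deleted RNA a and b. Both deleted RNAs were above both Sox9-expressing RNAs. The log2 ratio was -2.04 in the genotype and -1.66 in the treatment comparison, with a mean of -1.85 ± 0.27 (SD, n = 2), that is 3.60-fold lower with Sox9. Slpi ranked 17th from the bottom of the tested genes in the genotype comparison and 6th in the treatment comparison. The ratio lay between -2.07 and -1.56 in the 10 other settings, each array alone among them.

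Slpi also differed between the deleted RNAs themselves. On the log2 scale of brightness, deleted RNA b was below deleted RNA a by -0.57, a difference that 45 of 22731 tested probes (0.198%) reached in either direction. Over all tested probes this pair of RNAs had an SD of 0.113. The Sox9-expressing pair had a wider SD of 0.314, and there Slpi differed by -0.18, which 35.7% of the probes reached. Measured from the median of all probes, the gap between the deleted RNAs was -0.53 on the software's processed signals, where 3.84% of probes lay as far out, and -0.59 on unnormalized signals, where 1.07% did. Without normalization between the arrays it was -0.30, which 44.5% of probes reached. Such a gap was not particular to Slpi. Expi, measured the same way, was higher in deleted RNA b by 0.24 (3.36% of probes as far out), by 0.71 on the processed signals (1.98%) and by 0.57 on unnormalized signals (1.31%). Without normalization between the arrays it was higher by 0.41, which 25.3% of probes reached.

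**Figure D2:**
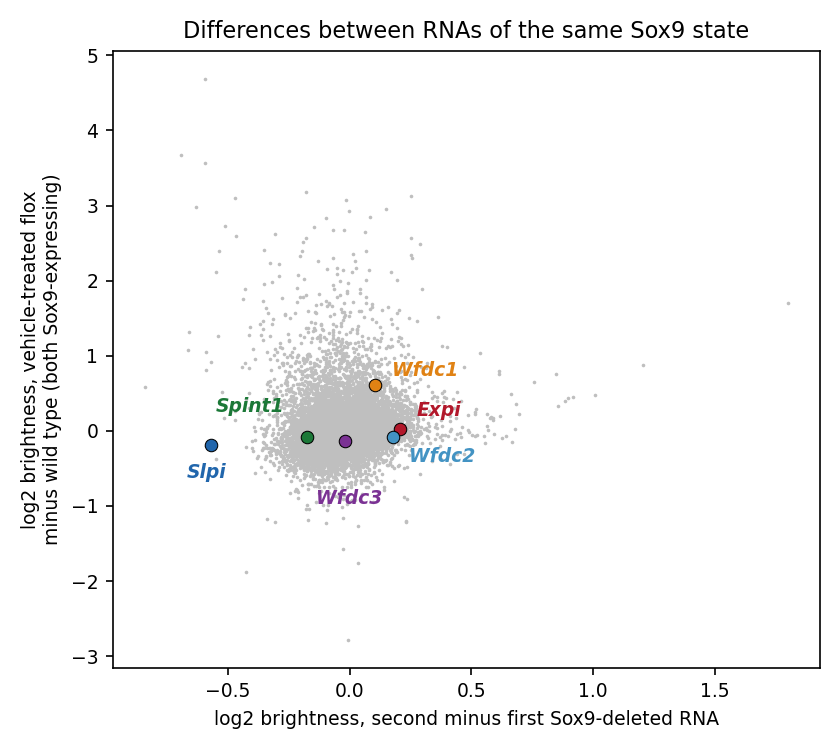
Log2 difference in brightness between deleted RNA b and deleted RNA a (horizontal axis) and between vehicle-treated ER-Sox9flox/flox and wild-type cells, which both express Sox9 (vertical axis), for each tested gene (grey). The 6 measured WAP and Kunitz genes are in colour, with Slpi far to the left at -0.57 and Wfdc1 above the others at 0.61.

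The genes nearest to Slpi in the plane of both ratios were 2310043J07Rik (0.20), the array's own transcript NAP113912-1 (0.36) and Ly6c1 (0.46), a surface protein known from leukocytes and endothelium. 2310043J07Rik had log2 ratios of -2.18 and -1.51. It read 2008 and 1694 in deleted RNA a and b. NAP113912-1 had log2 ratios of -1.90 and -1.99, and it read 2193 and 3942 there, a gap opposite in direction to that of Slpi. Ly6c1 had log2 ratios of -1.58 and -1.62, and it read 976.9 and 947.1, with hardly any gap between them. Since Slpi is also made by myeloid cells, leukocyte markers were read beside it. Of 7 on the array 3 were measured, and Ptprc, Itgam, Mpo and the elastase gene Ela2, a target of Slpi, were not well above background. The measured 3 (Cd68, Csf1r and Lyz2) summed to 1904 in wild-type and 3616 in vehicle-treated cells and to 3361 and 4190 in deleted RNA a and b, a sum in which Lyz2 weighs most. Cd68, a macrophage marker, read 333.1 in wild-type and 318.5 in vehicle-treated cells and 535.9 and 544.6 in deleted RNA a and b. Both deleted RNAs were thus above both Sox9-expressing RNAs for Cd68, as for Slpi, with log2 ratios of -0.69 and -0.77 (limma adjusted p = 0.0979). Lyz2 had log2 ratios of -0.90 and -0.15 on its brightest probe and -0.21 and -0.15 on the other. Csf1r was nearly level, at 0.03 and -0.12. The 5 markers of luminal and simple epithelium summed to 210000 in wild-type and 179200 in vehicle-treated cells. They summed to 218900 and 259600 in deleted RNA a and b, sums in which the keratins weigh most. By their brightest probes 2 of the 5 were lower on both arrays and 2 higher, beside 33.8% of all tested genes in each direction. The parts of leukocyte and luminal RNA in the Slpi difference were not tested.

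Wfdc2, known as HE4 and secreted by many ducts and glands, was lower with Sox9 on both arrays without reaching 2-fold on either. It read 25840 in wild-type and 24320 in vehicle-treated cells, and 42610 and 48130 in deleted RNA a and b. Both deleted RNAs were above both Sox9-expressing RNAs, an order easily reached with 2 RNAs on each side. The log2 ratios were -0.72 and -0.98, with a mean of -0.85 ± 0.19 (SD, n = 2), that is 1.81-fold lower. Among all tested genes it ranked 339th and 62nd from the bottom. The direction of Wfdc2 depends on the dyes being normalized. Before normalization Cy5 was the brighter channel, at 37870 and 37600 against 28600 and 31850 in Cy3. Spint1 likewise stood at 16620 in Cy5 and 8725 in Cy3 on the genotype array before normalization. With median centring the ratios of Wfdc2 were -0.50 and -0.13, and on the software's processed signals -1.05 and -1.28, past 2-fold on both arrays.

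**Figure D3:**
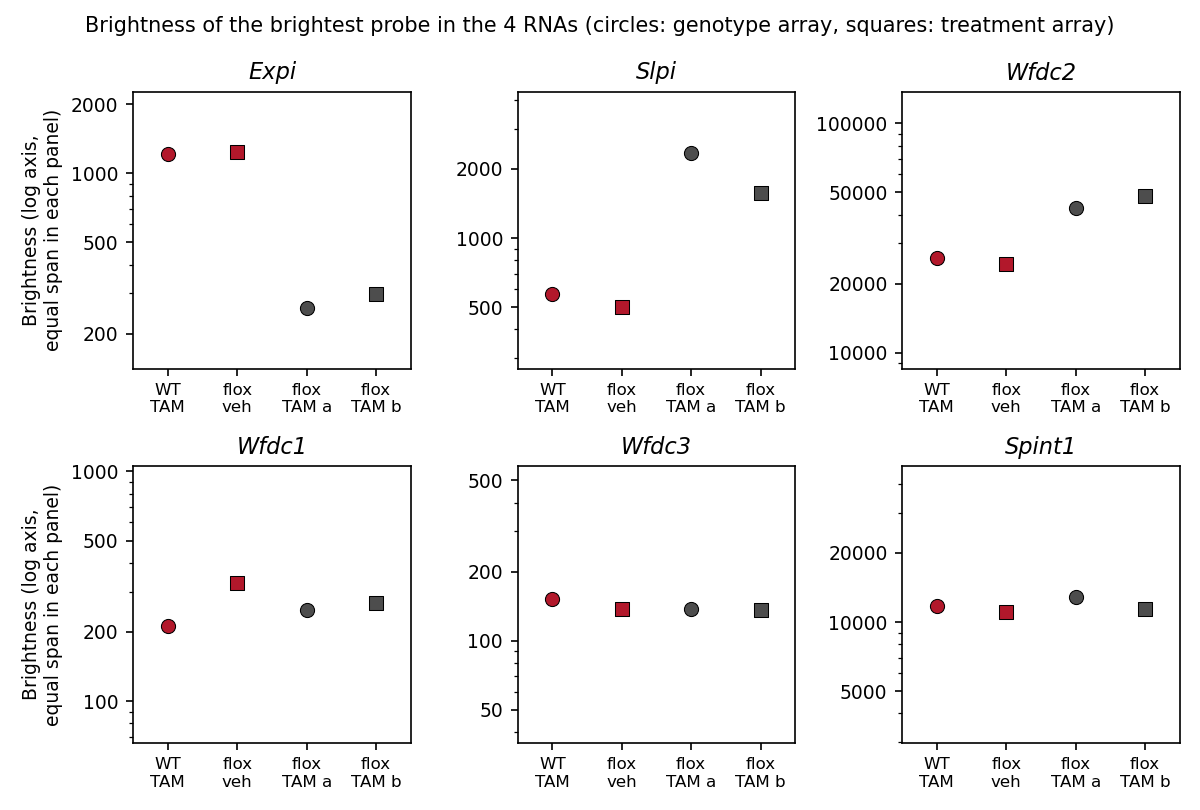
Brightness of the brightest probe of each measured gene in the 4 RNAs, on log axes that span the same fold range in each panel, in the arbitrary units of the scanner. Red points are Sox9-expressing and grey points Sox9-deleted RNAs, circles are the genotype array and squares the treatment array. The red and grey points are well apart for Expi, Slpi and Wfdc2. For Wfdc3 the red points (152 and 138.2) only just clear the grey ones (138 and 136.3).

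Wfdc1, or ps20, a growth-inhibiting protein first known from prostate stroma, had opposite signs on the 2 arrays. It read 212.9 in wild-type and 326 in vehicle-treated cells, and 249.1 and 267.6 in deleted RNA a and b. The deleted RNAs lay between the Sox9-expressing ones. The log2 ratios were -0.23 and 0.28, with a mean of 0.03 ± 0.36 (SD, n = 2). Vehicle-treated cells were above wild-type cells by 0.61 on the log2 scale, a difference that 4.47% of the tested probes reached, while the deleted RNAs differed by 0.10. The summed brightness of 6 stromal markers, among them Col1a1, Acta2 and Vim, was also lowest in wild-type cells (25960), highest in vehicle-treated cells (68880) and in between in deleted RNA a and b (41710 and 38090). All 6 were measured, and read by their brightest probes none had the same sign on both arrays. Among all tested genes, 33.8% were higher on both arrays and 33.8% lower. Another Acta2 probe above background in all 4 RNAs had the same sign on both, at 0.14 and 0.57. The part of stromal cells in the Wfdc1 values was not tested.

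Wfdc3, a WAP gene known mainly from the male reproductive tract, was dim but above background in all 4 RNAs. Its brighter probe had log2 ratios of 0.14 and 0.02, and the other, which is annotated to a separate cDNA 12.7 kb away on the array's map, -0.00 and -0.13. Spint1 was bright and nearly level. It read 11720 in wild-type and 11030 in vehicle-treated cells, and 12900 and 11420 in deleted RNA a and b. Its log2 ratios were -0.14 and -0.05, a mean of -0.09 ± 0.06 (SD, n = 2), and its second probe gave -0.19 and -0.14. The mean of its brightest probe was smaller in size than the SD of 0.113 between the deleted RNAs over all tested probes, and that of its second probe (-0.16) was larger. That SD is of brightness between arrays, not of ratios, and was 0.337 without normalization between the arrays. It is therefore no measure of the spread of these ratios.

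Other genes of the same families were read from lists. Of 9 other WAP-domain genes on the array, 1 was measured: Wfdc17, listed on the array under the name OTTMUSG00000000971, a gene known from activated macrophages and the neighbour of Expi on chromosome 11. It had log2 ratios of 0.04 and 0.23 (limma adjusted p = 0.475). Wap, Wfdc21, Wfdc6a, Wfdc15a, Wfdc15b, Spinlw1, Wfikkn1 and Wfikkn2 did not pass the same filter. Of 9 other genes with a Kunitz domain 6 were measured, 3 higher on both arrays and 1 lower. The largest was Col7a1, the collagen of anchoring fibrils, with 1.26 and 0.56 (limma adjusted p = 0.179).

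The proteases that these inhibitors act on were given by the same fit. St14, which encodes matriptase, had log2 ratios of -0.37 and -0.65, averaging -0.51 ± 0.20 (SD, n = 2) at a limma adjusted p of 0.171. Hgfac, hepatocyte growth factor activator, had -0.65 and -0.79, with a mean of -0.72 ± 0.10 (limma adjusted p = 0.105). Prss8, prostasin, had -0.33 and -0.38 (limma adjusted p = 0.176), and Hpn, hepsin, -0.12 and -0.42 (limma adjusted p = 0.308). All 4 were below 0 on both arrays, and none passed the test. These directions and the counts below were read after loess only. With median centring, which turned Spint1 positive, they were not read. The elastase gene Ela2 and the cathepsin G gene Ctsg were not well above background. Of the 30 proteases, receptors and substrates listed, 22 were measured, of which 12 were below 0 and 4 above 0 on both arrays, beside 33.8% of all tested genes in each direction, and their median log2 ratio was -0.20. Plat, tissue plasminogen activator, had the lowest mean, with -1.27 and -0.85 (limma adjusted p = 0.108) on its brightest probe. Another Plat probe above background in all 4 RNAs had -1.74 and -1.12, past 2-fold on both arrays. Plat was named after its values were seen, as were Col7a1 and Wfdc17.

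Over the 3 lists together, 29 genes were measured. Read by their brightest probes, 0 were at least 2-fold higher or lower on both arrays (the other Plat probe was), and limma called 0 at an adjusted p under 0.05. At an unadjusted p under 0.05, limma found 15 of them and the methods' t-test 1. Over all 22731 tested probes limma called 2, or 0.0088%, and 3990 had an unadjusted p under 0.05.

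**Figure D4:**
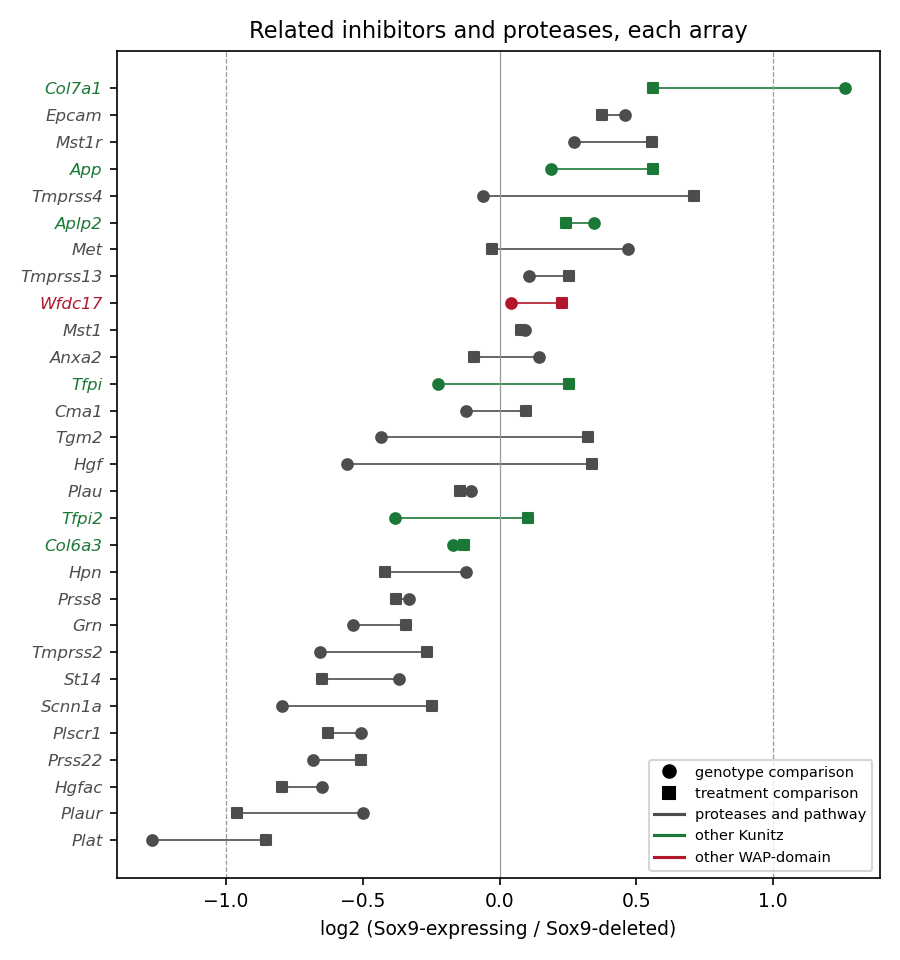
Log2 ratio of Sox9-expressing over Sox9-deleted RNA for the 29 measured related genes, with circles for the genotype and squares for the treatment comparison and a line joining them. The proteases St14, Hgfac, Prss8 and Hpn lie left of 0 on both arrays, and no gene, read by its brightest probe, lies beyond 1 of the dashed 2-fold lines on both arrays.

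The genes around Slpi and Expi were read on the array's map. Within 500 kb of the Slpi probe on chromosome 2, 42 other genes had probes, among them the members Wfdc2, Wfdc3, Wfdc5 and Wfdc12. Of the 22 measured, 0 were at least 2-fold higher or lower on both arrays. Tnnc2 passed 2-fold on each array but in opposite directions, at -1.83 in the genotype and 2.54 in the treatment comparison. The mean log2 ratios of the 22 ran from -0.85 (Wfdc2) to 0.77 (Ube2c), with a median of -0.03. Around Expi on chromosome 11, 15 of 32 genes were measured, 0 of them at least 2-fold different on both arrays, with means from -0.24 to 0.50.

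**Figure D5:**
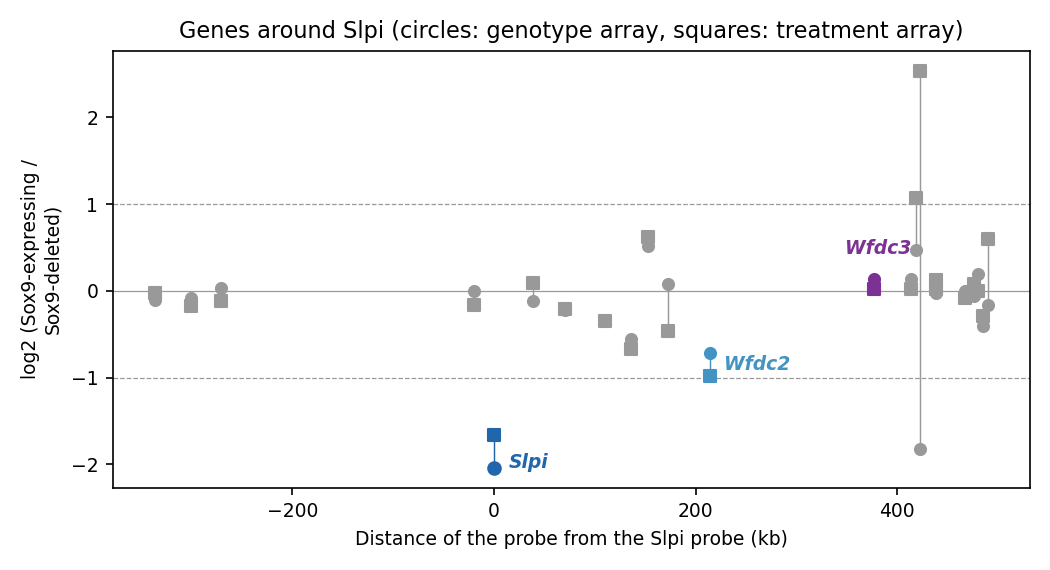
Log2 ratio on each array for Slpi and the 22 measured genes within 500 kb of it, by distance of the probe from the Slpi probe in kb. Circles are the genotype and squares the treatment comparison, and dashed lines mark 2-fold. Slpi is the one gene below the lower line on both arrays, and Wfdc2 is the next lowest by mean.

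The 250 bases before the transcript start of Expi and Slpi are shown to place these genes beside the letters that SOX proteins are known to prefer. Both are from RefSeq on GRCm38.p6, read 5′ to 3′ along the gene. Expi is taken from chr11:83708754-83709003 on the plus strand and Slpi from chr2:164356508-164356757 on the minus strand. Capitals mark every match to ACAAT or ACAAAG on either strand (no matches overlapped):
Expi, upstream: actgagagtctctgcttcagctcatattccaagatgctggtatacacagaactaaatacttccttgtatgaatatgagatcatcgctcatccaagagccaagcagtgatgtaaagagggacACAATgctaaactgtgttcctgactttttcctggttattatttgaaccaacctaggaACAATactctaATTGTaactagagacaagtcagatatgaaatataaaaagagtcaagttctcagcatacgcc
Slpi, upstream: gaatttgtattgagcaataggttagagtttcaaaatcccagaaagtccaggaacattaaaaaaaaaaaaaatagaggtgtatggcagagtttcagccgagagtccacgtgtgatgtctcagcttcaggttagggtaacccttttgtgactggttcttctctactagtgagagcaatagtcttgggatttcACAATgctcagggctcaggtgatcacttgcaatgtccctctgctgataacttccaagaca
ACAAT was found 3 times before Expi, 129 and 72 bases before the start on the gene's own strand and 61 bases before it on the other strand. Before Slpi it was found once, 60 bases before the start. ACAAAG was found before neither. Of the 32851 windows of this length in the RefSeq table, 27.7% held ACAAT, 1.35% held it at least 3 times, and 16.5% held ACAAAG. Of the 7 members with a window in the table, 3 held ACAAT (Expi, Slpi and Wfdc2), beside the 27.7% of all windows. No member held ACAAAG. A match is a description of letters and shows no binding.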

How the data were processed

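The authors' scanner software, Agilent Feature Extraction 10.5.1.1, deposited for each spot the mean intensity and the median local background intensity of both dyes, its own processed intensity and the log10 ratio of Cy5 over Cy3. The authors also deposited a table of log2 ratios, whose slope on the log10 ratios was 3.09 and 3.15 and whose array medians are -0.00989 and -0.00344. Its steps and centring are not given in the sources used here, beyond limma being named in the submitters' processing notes. Probe coordinates are those of the file headers (mm9).

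Mean intensities were background-corrected with normexp (limma 3.58.1, R 4.3.3, offset 50), control spots were left out, and loess was run within each array. Aquantile between arrays gave the brightness of each RNA. Outlier spots were left out after these steps, when spots were averaged to probes. Of 45018 spots, 1639 were controls, and 41174 probes remained. Probes were tested if on both arrays they stood well above background in Cy5, or on both in Cy3 (22731, read as 15131 genes by the brightest probe). On each array 53.9% to 56.2% of probes were well above background, and 0 spots were saturated. limma's lmFit and eBayes tested the mean of both arrays against 0, with Benjamini-Hochberg adjustment. 2 arrays leave 1 residual degree of freedom, and their number limits the precision. eBayes joins each probe's spread between the 2 arrays with a spread pooled over all tested probes (prior SD 0.119, 2.8 degrees of freedom). The p-values thus measure the spread between 2 different contrasts and not between replicates of either. Replicate spots differed by a median SD of 0.0362 and 0.0429.

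The fit was tested on simulated data. Of 22731 probes, 200 were changed. limma called 98 of 100 changed by 2 and 80 of 100 changed by 1 on the log2 scale, and 11 unchanged probes. The simulated spread was drawn from the fit's own prior with independent normal errors. These calls therefore check the procedure and do not give its power on the arrays. There Krt5, at a mean log2 ratio of 2.02, was not called (limma adjusted p = 0.0591). The members, lists and tests were chosen with earlier results of these data known. Named are all members, related genes past 2-fold on both arrays, the proteases St14, Prss8, Hpn, Hgfac, Ela2 and Ctsg, the 3 genes nearest to Expi and to Slpi, and Sox9. Wfdc17, Col7a1, Plat, Ube2c, Tnnc2 and the marker genes are named outside this rule. Some of the listed prostate markers are not reported here. Array names were matched to current RefSeq symbols by synonym or accession. The neighbours of Expi and Slpi and the upstream motifs were added after values had been seen. Plots were drawn with matplotlib 3.10.9 in Python 3.11.15.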

Additional observations from a re-analysis of the deposited data

Results flagged for a closer look

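Wfdc1 was lower with Sox9 in the genotype comparison (log2 ratio -0.23) and higher in the treatment comparison (0.28), a difference of 0.511 between the arrays. It drew attention because the 2 contrasts point in opposite directions. That is common on these arrays: 33.8% of all tested genes were higher on both, 33.8% were lower on both, and the others had opposite signs. With 1 array each, the difference itself was not tested. The sign on each array was the same under every background correction, signal and normalization tried.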

How the results depend on the processing

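Expi stayed at least 2-fold higher and Slpi at least 2-fold lower in all 10 alternatives, each array alone included. For these genes some alternatives could not differ. The other filters kept the same probes and values, and each array alone passes where both do. For Slpi, with 1 tested probe, averaging over probes also changed nothing. The count of members past 2-fold was 2 in each alternative, except 3 on the software's processed signals, where Wfdc2 was added. The median of the measured members was 0.20 with median centring, and from -0.182 to -0.0149 when 1 array was left out. The count of genes past 2-fold on both arrays (81, of which 57 higher) was 127 without background subtraction, 127 on the authors' table and 479 on the processed signals (44.1% higher, against 70.4%). Median centring gave 104, of which 93.3% higher, and 1 array alone 253 to 319. limma's 2 calls became 0 without background subtraction, 0 with an offset of 10, 0 on the processed signals, 21 with no filter, 68 on the authors' table and 522 with median centring. The methods' t-test called 1930 unadjusted and 0 after adjustment. Of the related genes, 0 were called except with median centring, which called 1 (Col7a1, limma adjusted p = 0.000179). The median gap of the members between deleted RNA b and a (0.04) was 0.29 on the processed signals and -0.19 without normalization between the arrays, where the medians of all probes were 0.25 and -0.33. The causes were not tested. No paired analysis was possible because the groups hold 1 array each, so replicate numbers pair nothing beyond the 2 RNAs of an array, whose pairing is in every log2 ratio. Signal over background limits Expi in the deleted RNAs, Wfdc3, and the members that were not measured.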
